A study of Homo sapiens with 4 samples.

Results

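The RNF and TRIM genes are large name families of RING-type ubiquitin ligases, and their RNA was followed in HepG2, a human liver cancer cell line. Members were the gene symbols made of RNF or TRIM, a number and at most 1 further letter, with RNF111, RNF43 and TRIM33 left out by the rule. Of the 23368 symbols listed by the authors, 150 matched, 80 RNF and 70 TRIM. Averaged over the 4 libraries, 93 of them reached a normalized count of 5, 58 RNF and 35 TRIM. A normalized count is the number of reads of a gene divided by a size factor of its library, and it is not scaled to transcript length. Of the remaining names, 27 had 0 reads in all 4 libraries and 30 had at least 1 read but a mean under 5.

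RNA sequencing covered 4 conditions, each with a single library of total RNA. The shCtrl library came from HepG2 cells infected with a lentivirus carrying a control short hairpin RNA, and the shPJA1 library from cells infected with a hairpin against PJA1, itself a RING-type ligase. The TGFb1 library came from cells given TGF-beta1, in the protocol at 200 pM for 1 hour. The labels do not say whether these cells carried a control hairpin. The fourth library carries conflicting labels: its title names the PJA1 hairpin and TGF-beta1, its treatment label says water, and the design text lists a control named HepG2/Ctrl in its place. It is called the shPJA/TGFb1-titled library throughout. No label describes separate cultures or clones. Without replicates no difference below has a replicate check, so ratios are given with an exact conditional 95% interval of a pair of Poisson counts, which covers counting error only.

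The libraries held 990698 to 2848665 reads, the fewest in the shPJA/TGFb1-titled library and the most in TGFb1. PJA1 had a normalized count of 50.3 in shCtrl, 15.3 in shPJA1, 38.2 with TGFb1 and 9.78 in the shPJA/TGFb1-titled library, so it was lowest where a hairpin against it is named, the last value resting on 6 reads. SMAD7, a direct target and inhibitor of TGF-beta signalling, stood at 83.0 in shCtrl, 69.3 in shPJA1, 168 with TGFb1 and 158.1 in the shPJA/TGFb1-titled library. Both genes therefore followed the titles, and the SMAD7 value goes against the water label of the last library. All 14 hepatocyte markers checked were above a mean of 5. Of 6 leukocyte markers 3 were above it, and their sum ran from 1080 to 1519 normalized counts, nearly all of it LYZ (978 to 1343) and CD68 (95.1 to 176), with CD79A at 5.70 to 19.6 and PTPRC and CD3E at 0 reads in all 4 libraries. Of 4 fibroblast markers PDGFRB alone passed, at a mean of 5.25, the sum ran from 3.60 to 8.15, and DCN was at 0. None of 4 endothelial markers passed, and CDH5 and KDR were at 0. The part of these markers in the ratios below was not tested.

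Ubiquitin is passed from an activating E1 enzyme to a conjugating E2 enzyme and then, with the help of an E3 ligase, to a substrate. A RING domain binds the loaded E2 and promotes the transfer, and ligases of the RBR type first take the ubiquitin onto a cysteine of their own. RNF stands only for RING finger protein and joins unrelated ligases of membranes, chromatin and the cytosol. TRIM proteins share an N-terminal arrangement of RING, B-box and coiled coil, followed by C-terminal regions such as PRY-SPRY or NHL repeats that bind substrates or RNA. Several TRIM proteins restrict viruses or tune innate immune signalling, and some RNF proteins act on sterol synthesis enzymes in the endoplasmic reticulum of liver cells. In TGF-beta signalling, ligases of the RING type act on SMAD proteins and their repressors.

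Promoter sequences show what could be read next to these genes. Of the 93 members 75 matched a RefSeq promoter (GRCh38.p14, 250 bases before to 50 after the start), and the deposited table itself carries no coordinates. The promoters of 5 members are printed 5′ to 3′, on the strand of the gene. RNF14 and RNF25 are shown because both were low in the shPJA/TGFb1-titled library and level in the other libraries, RNF114 because it had the smallest ratio of highest to lowest library, and TRIM14 and TRIM21 because they hold a match to the interferon response core. Capitals mark a match on either strand to any of 10 motifs searched, and lower case letters lie outside them.
RNF14 (chr5:141966593-141966892, plus strand): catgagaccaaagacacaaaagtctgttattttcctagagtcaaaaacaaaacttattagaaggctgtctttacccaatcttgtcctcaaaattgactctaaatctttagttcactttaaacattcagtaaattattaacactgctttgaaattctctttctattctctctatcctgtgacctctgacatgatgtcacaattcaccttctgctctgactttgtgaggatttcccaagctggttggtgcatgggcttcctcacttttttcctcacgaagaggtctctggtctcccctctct
RNF25 (chr2:218671953-218672252, minus strand): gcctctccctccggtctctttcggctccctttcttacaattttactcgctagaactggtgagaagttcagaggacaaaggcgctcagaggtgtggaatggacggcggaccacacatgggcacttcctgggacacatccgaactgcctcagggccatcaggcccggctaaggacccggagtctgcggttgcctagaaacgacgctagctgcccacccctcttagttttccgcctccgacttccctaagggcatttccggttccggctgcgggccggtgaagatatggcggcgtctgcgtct
RNF114 (chr20:49936147-49936446, plus strand): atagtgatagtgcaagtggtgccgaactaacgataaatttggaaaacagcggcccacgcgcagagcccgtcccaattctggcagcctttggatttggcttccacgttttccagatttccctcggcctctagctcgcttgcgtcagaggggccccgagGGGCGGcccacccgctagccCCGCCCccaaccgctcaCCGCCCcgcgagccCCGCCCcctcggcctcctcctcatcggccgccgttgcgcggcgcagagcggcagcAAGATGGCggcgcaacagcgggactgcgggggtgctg
TRIM14 (chr9:98119173-98119472, minus strand): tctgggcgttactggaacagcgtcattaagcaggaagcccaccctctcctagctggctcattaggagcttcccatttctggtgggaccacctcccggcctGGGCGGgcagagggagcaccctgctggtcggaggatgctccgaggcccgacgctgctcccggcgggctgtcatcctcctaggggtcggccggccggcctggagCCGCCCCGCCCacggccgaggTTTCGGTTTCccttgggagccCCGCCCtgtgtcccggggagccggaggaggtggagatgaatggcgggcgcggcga
TRIM21 (chr11:4393653-4393952, minus strand): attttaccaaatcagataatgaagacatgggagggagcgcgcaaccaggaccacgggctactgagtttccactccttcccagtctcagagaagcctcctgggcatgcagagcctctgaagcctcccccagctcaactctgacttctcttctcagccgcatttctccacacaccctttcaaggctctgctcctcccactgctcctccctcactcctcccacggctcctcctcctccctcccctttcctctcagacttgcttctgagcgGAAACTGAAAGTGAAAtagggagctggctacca

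The RNF14 and RNF25 windows held none of the 10 motifs. The RNF114 window held 4 matches to GGGCGG, the GC box, and 1 to AAGATGGC, which the factor YY1 is known to bind. TRIM14 held 4 GC boxes and 1 match to the core of the interferon-stimulated response element (GAAA, any 2 bases, GAAA), and TRIM21 held 2 such matches that overlap by sharing GAAA. Across all members with a promoter, this core lay in 7 of 75, in RNF31, TRIM14, TRIM2, TRIM21, TRIM26, TRIM44 and TRIM5, a share of 9.33% against 3.65% of 27305 promoters. AAGATGGC lay in 4, in RNF114, RNF121, RNF169 and RNF26, a share of 5.33% against 3.03%. GGGCGG lay in 52, 69.3% against 44.6%, in promoters whose median GC content was 64.3% against 58.3% over all promoters. The SMAD-binding sequence CAGACA lay in 9 members, 12% against 16.8%, and its longer palindrome GTCTAGAC in none against 0.201%. For the remaining motifs the member share was 2.67% against 1.98% for TGACGTCA, 5.33% against 7.43% for CACGTG, 6.67% against 4.44% for CCGGAAGT, 5.33% against 12% for TATAAA and 2.67% against 3.27% for GCGCATGC. A match describes letters in the window and is not a bound site.

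Together the 150 names took 0.640% of the reads in shCtrl (95% Clopper-Pearson interval 0.627 to 0.654), 0.636% in shPJA1 (0.625 to 0.648), 0.635% with TGFb1 (0.626 to 0.644) and 0.627% in the shPJA/TGFb1-titled library (0.612 to 0.643). The intervals overlap, so a difference in the summed output of the families was not detectable at this depth. Reads, and hence the order below, rise with transcript length. In bulk RNA, fewer cells with a transcript and less of it per cell cannot be told apart.

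Among TRIM proteins with a PHD finger and bromodomain, TRIM24, a nuclear receptor coregulator, gave the most reads of any member. Its normalized count was 588 in shCtrl, 630.3 in shPJA1, 528 with TGFb1 and 597 in the shPJA/TGFb1-titled library. TRIM28, the corepressor of KRAB zinc finger proteins, ran from 112 to 131, and TRIM66 from 16.5 to 24.4. All 3 names assigned to this class under the name rule passed the mean of 5.

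Of the 29 TRIM names assigned to the PRY-SPRY class 18 passed. TRIM25, which ubiquitylates the RNA sensor RIG-I, stood at 465 in shCtrl, 436 in shPJA1, 427 with TGFb1 and 429 in the shPJA/TGFb1-titled library, the highest over the lowest being 1.09. TRIM27, which acts at the retromer, ran from 171 to 227 and TRIM26 from 125 to 159.7. Lower in counts were TRIM5, which binds retroviral capsids, at 40.9 to 55.8, and TRIM21, the cytosolic antibody receptor, at 21.2 to 35.9. TRIM22 ran only from 4.68 to 5.70. TRIM34 had 0 reads in all libraries, where the floor of 3 reads is worth 1.71 normalized counts in TGFb1 and 4.89 in the shPJA/TGFb1-titled library. The read-through name TRIM6-TRIM34, listed separately, also had 0, and how reads shared by both were assigned is not given.

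The NHL class held TRIM71, the target of let-7 microRNAs known as LIN41 that binds RNA in stem cells, at 368 in shCtrl, 372 in shPJA1, 323 with TGFb1 and 447 in the shPJA/TGFb1-titled library. TRIM32, mutated in a limb-girdle muscular dystrophy, ran from 115 to 145 and TRIM2 from 12.5 to 21.2. In this class the shPJA/TGFb1-titled library gave the highest value of TRIM71, TRIM32 and TRIM2, the last on 13 reads. TRIM3, the remaining member, was highest in shCtrl at 8.18, beside 8.15 in the shPJA/TGFb1-titled library. TRIM44, which lacks a RING, ran from 246 to 314, and TRIM8 from 263 to 305. None of the 3 muscle TRIM names TRIM54, TRIM55 and TRIM63 passed, with TRIM55 and TRIM63 at 0 reads.

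In the immune signalling class, RNF213, the very large ATPase and ligase linked to moyamoya disease, stood at 535 in shCtrl, 561 in shPJA1, 579 with TGFb1 and 489 in the shPJA/TGFb1-titled library. RNF114, a ligase linked to psoriasis, stood at 449 in shCtrl, 428 in shPJA1, 429 with TGFb1 and 447 in the shPJA/TGFb1-titled library. Its highest value was 1.05 times its lowest, the smallest such ratio among the 93 members. RNF31, the catalytic subunit of the complex that builds linear ubiquitin chains, ran from 133 to 159.7.

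All 9 names of the chromatin and DNA damage class passed. RNF8, which starts histone ubiquitylation at DNA breaks, ran from 181 to 217, and RNF169, which reads those marks, from 179 to 205. RNF20 and RNF40, the pair that ubiquitylates histone H2B, ran from 128 to 149 and from 97.8 to 114. RNF4, which binds SUMO chains, ran from 153 to 199.9, and RNF2, the Polycomb ligase of histone H2A, from 46.8 to 66.8. The range of RNF20 and RNF40 was narrow, their highest value being 1.17 and 1.16 times their lowest.

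All 8 RBR ligases passed. RNF19A, also called dorfin, stood at 215 in shCtrl, 264 in shPJA1, 304 with TGFb1 and 204 in the shPJA/TGFb1-titled library. RNF216, which acts on innate receptors, ran from 212 to 246. RNF14, a coregulator of the androgen receptor that also acts on stalled ribosomes, had a mean of 55.8, and RNF217, at 5.06, was the member just above the threshold. In the membrane-anchored class 8 of 15 names passed, led by RNF103 of the endoplasmic reticulum (221 to 263), and in the class with a protease-associated domain 5 of 8, led by RNF149 (155 to 210.3) and RNF128 (126 to 192).

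**Figure D1:**
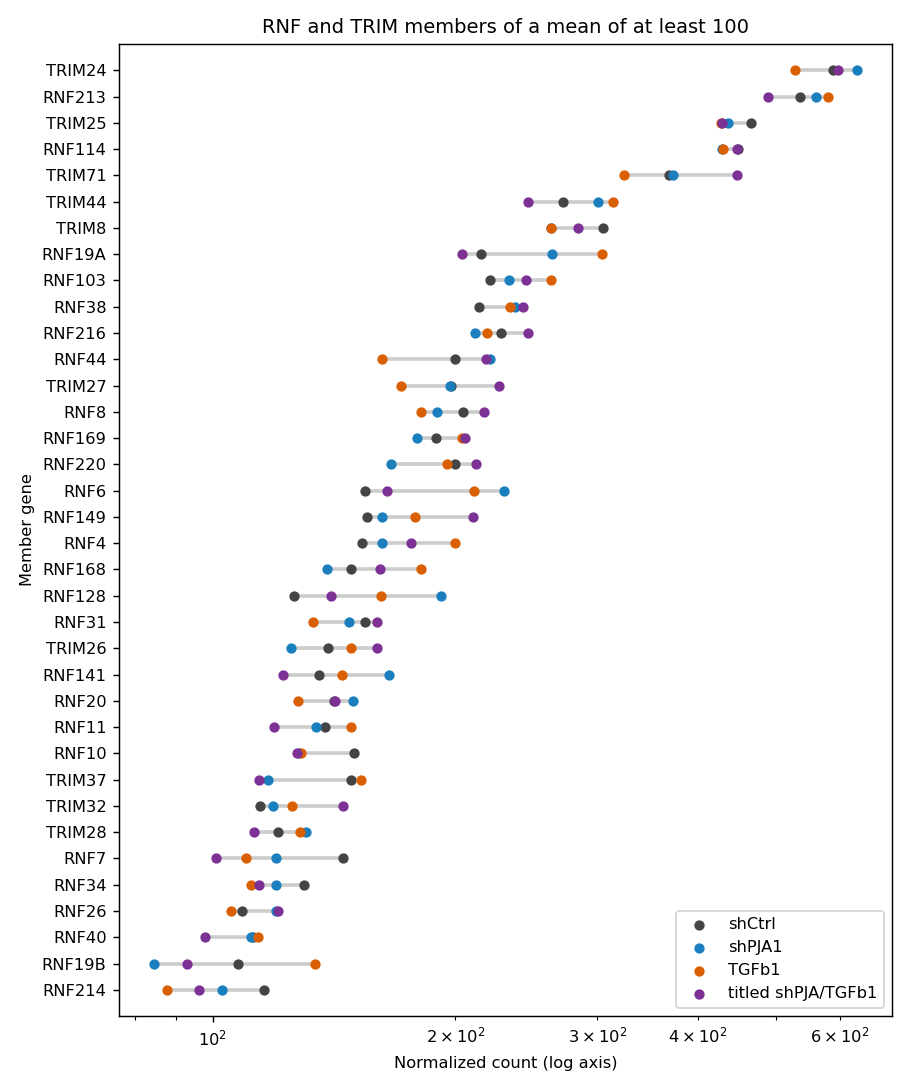
Normalized counts (x axis, logarithmic) of the 36 members with a mean of at least 100 (y axis), 1 point per library and a grey line from the lowest to the highest. TRIM24, RNF213, TRIM25, RNF114 and TRIM71 lie at the top, the points of RNF114 and TRIM25 nearly coincide, and those of RNF19A, RNF6, RNF128 and RNF19B spread widest for their level.

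The plot of the 36 members with a mean of at least 100 orders them by reads, not by molecules. Per kilobase of the median protein-coding transcript in GENCODE release 29, RNF19A had the highest level at 351 normalized counts per kilobase, then RNF114 at 341, TRIM8 at 316, RNF31 at 257, RNF10 at 219, TRIM37 at 218, RNF20 at 203, RNF4 at 193, RNF40 at 167 and RNF8 at 150.4. Per kilobase of the longest transcript the order differed, with RNF114 first at 175, then RNF181 at 92.5 and TRIM25 at 76.6. RNF19A was further down at 57.0, below RNF149 at 71.8 and several others. RNF114 was the member near the top on both scales. Levels per kilobase of genes with many transcripts therefore depend on the transcript chosen.

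Just above the mean of 5 were RNF217 at 5.06, TRIM22 at 5.17 and RNF215 at 6.63, and just below it TRIM45 at 3.45, TRIM78P at 2.85 and TRIM54 at 2.58. RNF5, a ligase of the endoplasmic reticulum, had 1 read in all, while its near-identical copy RNF5P1 had a mean of 33.0, so the level of RNF5 is uncertain. RNF216 and RNF138 also have listed copies, RNF216P1 at a mean of 33.3 and RNF138P1 at 9.71, and how shared reads were assigned is not given in the sources used here. Of the 93 members, 31 overlap a gene of the table on the opposite strand and 11 on the same strand, and the strand setting of the counting is not given either. Of the genes the comparisons turn on, RNF14, RNF25, RNF19A, RNF13 and TRIM14 have an opposite-strand neighbour, and RNF6, RNF128, RNF139, TRIM36, TRIM71, RNF121 and RNF44 have none.

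The first comparison asked what the PJA1 hairpin went with in cells without TGF-beta1. No member was at least 2-fold higher or lower in shPJA1 than in shCtrl, where 1.71% of 11212 genes of a mean of at least 5 were higher and 1.63% lower. Folds for this count were taken on the log2 scale after adding a pseudocount of 1, and so understate differences of genes with few reads. The interval of the plain ratio excluded 1 for 5 members, 4 higher and 1 lower, against 5.85% and 5.23% of all genes; the members' shares were 4.30% and 1.08%. The median log2 ratio was -0.01 over the members and 0.00 over all genes.

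RNF6, a ligase of the androgen receptor and other nuclear proteins, stood at 154 in shCtrl and 229.6 in shPJA1, a ratio of 1.49 (95% interval 1.20 to 1.85). RNF128, known as GRAIL for its part in T cell anergy, stood at 126 and 192, a ratio of 1.52 (1.20 to 1.93). RNF139, a sterol-regulated ligase of the endoplasmic reticulum also called TRC8, stood at 32.7 and 56.7, a ratio of 1.73 (1.09 to 2.81). All 3 were also higher in TGFb1 than in shCtrl, a comparison that shares the shCtrl library. RNF19A had a ratio of 1.23 (1.02 to 1.48), and with the trend on transcript GC content removed its interval no longer excluded 1, while that of TRIM37 began to, at a ratio of 0.747 (0.581 to 0.962). With the trend removed the count stayed at 5, or 5.38% of the members against 8.75% of all genes. TRIM38, a brake on innate immune signalling, stood at 122 in shCtrl, 81.9 in shPJA1, 95.1 with TGFb1 and 83.1 in the shPJA/TGFb1-titled library, and its ratio of shPJA1 over shCtrl was 0.67 (0.503 to 0.902).

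Outside those 5, the ratios farthest from 1 among members of a mean of at least 20 had intervals that held 1. RNF32 stood at 15.2 in shCtrl, 28.8 in shPJA1, 26.2 with TGFb1 and 32.6 in the shPJA/TGFb1-titled library, a ratio of shPJA1 over shCtrl of 1.90 (0.968 to 3.94) on 13 and 32 reads. TRIM36 had a ratio of 1.49 (0.792 to 2.92), TRIM52 of 0.67 (0.385 to 1.16) and RNF144A of 0.73 (0.515 to 1.03). At these read numbers a difference of that size was not detectable.

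**Figure D2:**
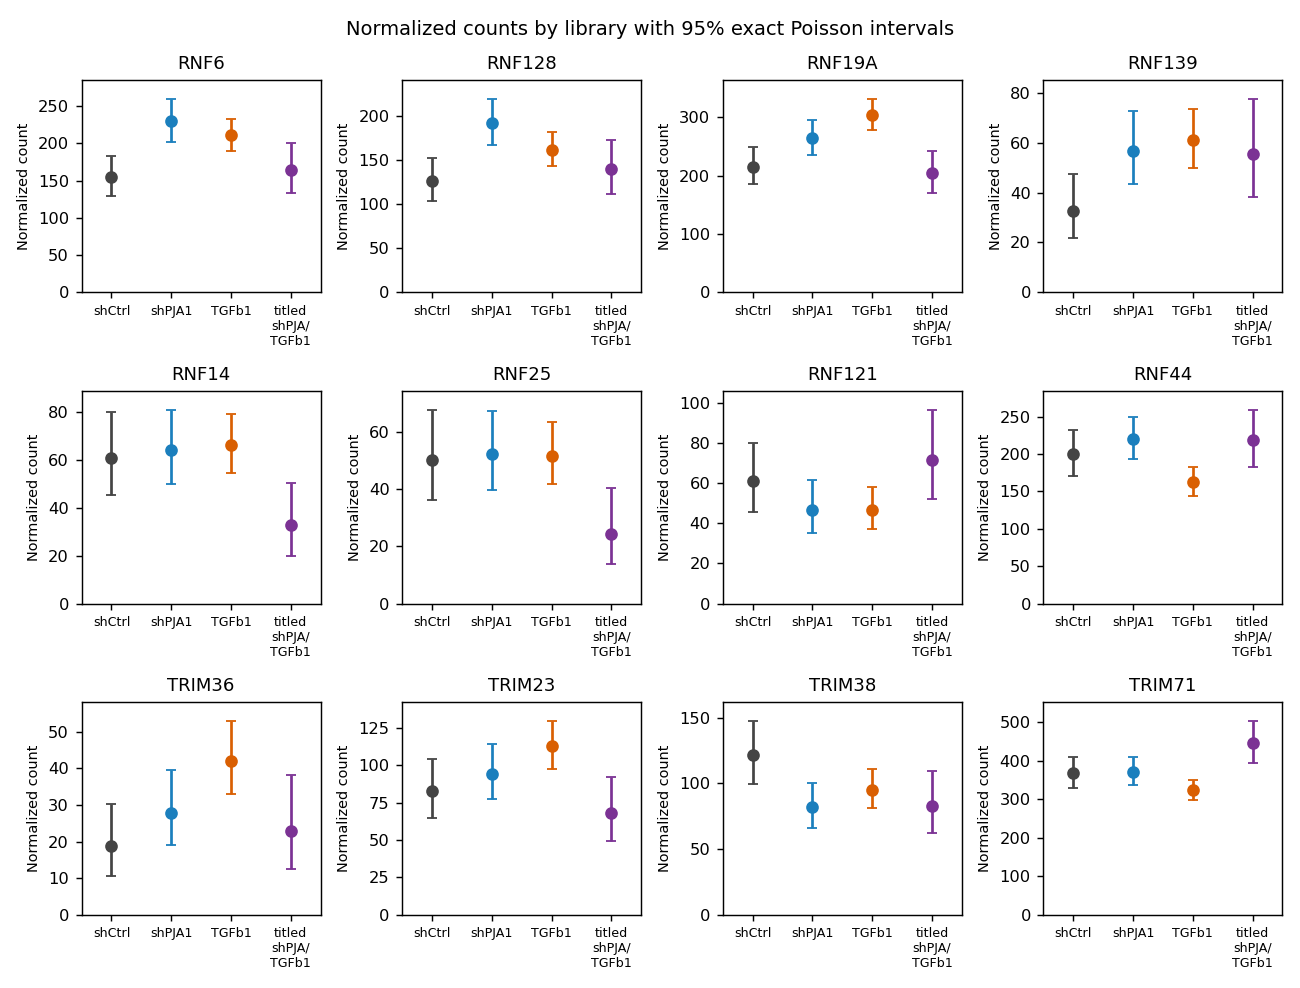
Normalized counts (y axis, from 0) of 12 members in the 4 libraries (x axis); bars are exact Poisson 95% intervals and cover counting error only. RNF6, RNF128 and RNF19A are high in shPJA1 and TGFb1, RNF139 is low in shCtrl alone, RNF14 and RNF25 are low in the shPJA/TGFb1-titled library alone, and TRIM36 is highest in TGFb1.

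The second comparison set TGFb1 against shCtrl. TRIM36, a microtubule-associated TRIM, was the single member at least 2-fold higher, against 1.46% of all genes, and no member was 2-fold lower, against 2.43%. The interval excluded 1 for 15 members, 9 higher and 6 lower, or 9.68% and 6.45% of the 93, and over all genes for 10.8% and 9.29%. The members' shares were thus at or under the background, and their median log2 ratio was 0.01 beside 0.00 for all genes. TGFb1 was sequenced deepest, so these intervals are narrower than those of shPJA1 over shCtrl.

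TRIM36 stood at 18.7 in shCtrl, 27.9 in shPJA1, 42.1 with TGFb1 and 22.8 in the shPJA/TGFb1-titled library. Its ratio of TGFb1 over shCtrl was 2.25 (1.30 to 4.15) on 74 and 16 reads, and TGFb1 was higher than each of the other libraries. RNF139 had a ratio of 1.86 (1.22 to 2.93) and RNF19A of 1.41 (1.19 to 1.68). RNF13, a ligase of endosomes and the endoplasmic reticulum, stood at 77.1 in shCtrl, 77.4 in shPJA1, 113 with TGFb1 and 65.2 in the shPJA/TGFb1-titled library, a ratio of 1.46 (1.10 to 1.96). TRIM23, whose C-terminus is an ARF-like GTPase, stood at 83.0 in shCtrl, 94.5 in shPJA1, 113 with TGFb1 and 68.5 in the shPJA/TGFb1-titled library, a ratio of 1.36 (1.03 to 1.81). RNF13, TRIM23 and TRIM36 were each highest in TGFb1. RNF4 had a ratio of 1.31 (1.07 to 1.61), RNF6 of 1.37 (1.12 to 1.68), RNF128 of 1.28 (1.02 to 1.61) and RNF103 of 1.19, whose interval began just above 1.

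Lower in TGFb1 were RNF145, RNF187, RNF214, RNF44, RNF7 and TRIM52. RNF145, a sterol-responsive ligase of the endoplasmic reticulum that acts on HMG-CoA reductase, stood at 21.0 in shCtrl, 23.4 in shPJA1, 10.3 with TGFb1 and 13.0 in the shPJA/TGFb1-titled library. Its ratio was 0.49 (0.239 to 0.993) on 18 reads in both libraries, so the interval nearly reaches 1. RNF7, the RING subunit of cullin ligases also called SAG, stood at 145 in shCtrl and 109.9 in TGFb1, a ratio of 0.76 (0.602 to 0.958). RNF187 had a ratio of 0.69 (0.516 to 0.931), RNF214 of 0.76 (0.585 to 0.986) and TRIM52 of 0.55 (0.330 to 0.923). RNF44 stood at 199.9 in shCtrl, 221 in shPJA1, 162 with TGFb1 and 218 in the shPJA/TGFb1-titled library, a ratio of 0.81 (0.670 to 0.987). TGFb1 was the lowest library for RNF44, while for RNF7 the shPJA/TGFb1-titled library was lower still at 101.

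With the GC trend removed 14 members had an interval excluding 1 in TGFb1 over shCtrl, 9 of them among the 15 above, a share of 15.1% against 15.5% of all genes. The call ended for RNF128, RNF13, RNF187, RNF44, RNF6 and TRIM23. It began for RNF19B, RNF213, TRIM24, TRIM38 and TRIM71. TRIM36, RNF139, RNF19A and RNF145 were among those that stayed. The plot of members whose interval excludes 1 shows that the ratios farthest from 1 tend to have wide bars.

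**Figure D3:**
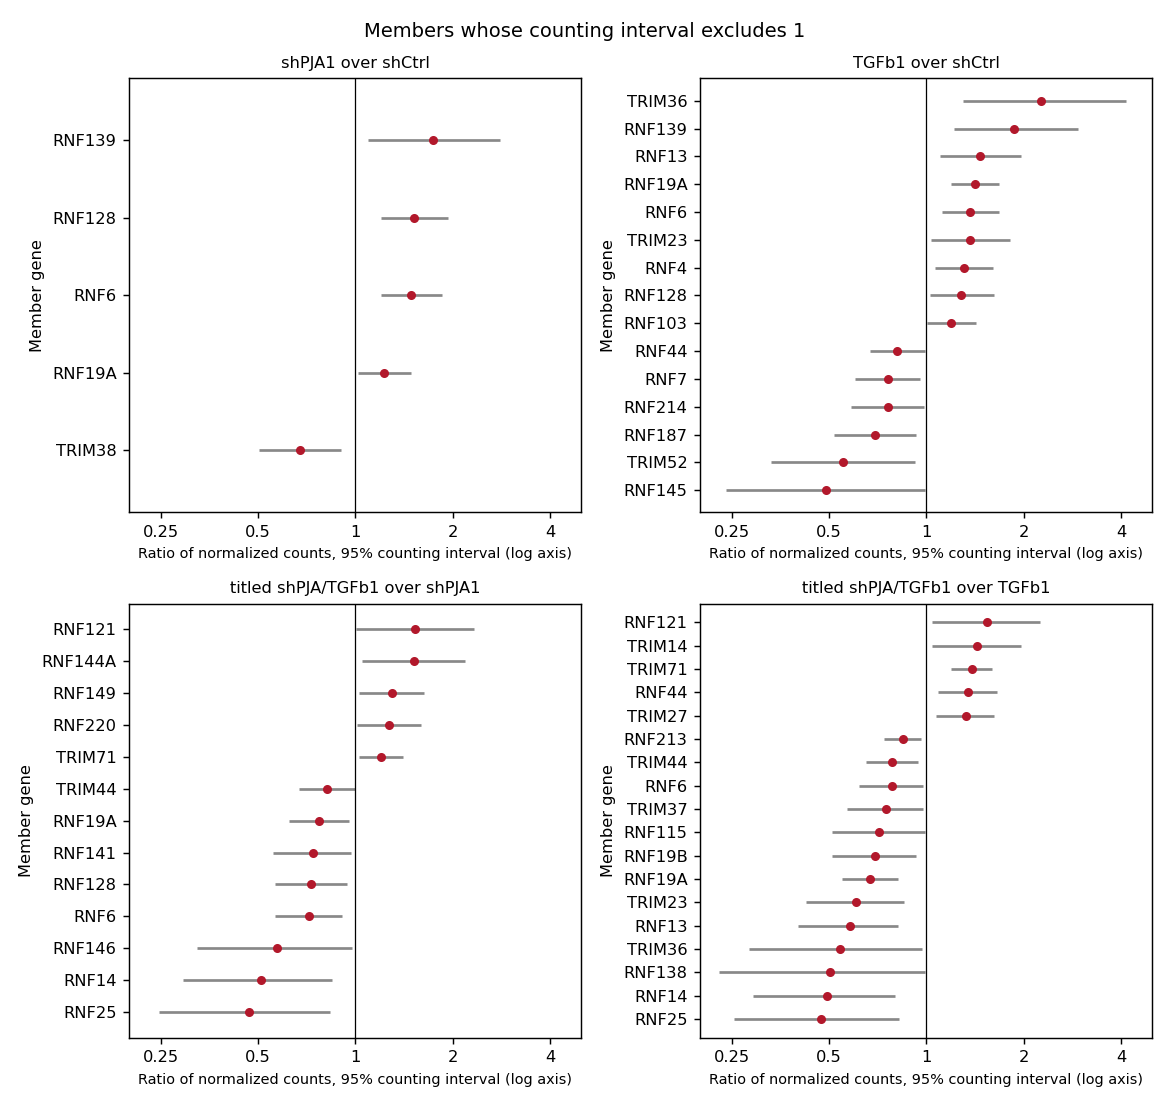
Members whose 95% counting interval excludes 1 in each of the 4 comparisons (y axis), with the ratio of normalized counts as points and the interval as bars (x axis, logarithmic). The panels hold 5, 15, 13 and 18 members, most ratios lie between 0.5 and 2, and the bars of RNF145, RNF25 and RNF138 are wide because these genes had few reads.

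The third comparison set the shPJA/TGFb1-titled library against shPJA1, and by title it gives TGF-beta1 in cells with the PJA1 hairpin. TRIM29 was at least 2-fold higher, against 1.89% of all genes, and RNF125 and RNF25 at least 2-fold lower, against 3.16%. TRIM29, which lacks a RING, rested on 7 and 9 reads, and RNF125, a ligase of RIG-I, on 9 and 1 reads, and both intervals held 1. The interval excluded 1 for 5 members higher and 8 lower, or 5.38% and 8.60%, against 4.91% and 4.31% of all genes. The median log2 ratio was -0.01 for the members and -0.00 for all genes.

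RNF25, a ligase that acts with RNF14 on proteins trapped on stalled ribosomes, stood at 50.3 in shCtrl, 52.2 in shPJA1, 51.8 with TGFb1 and 24.4 in the shPJA/TGFb1-titled library. RNF14 stood at 60.8 in shCtrl, 63.9 in shPJA1, 66.1 with TGFb1 and 32.6 in the shPJA/TGFb1-titled library. Both were level in the other libraries and low in this one, on 15 and 20 reads. Over shPJA1 the ratio was 0.47 (0.246 to 0.837) for RNF25 and 0.51 (0.294 to 0.847) for RNF14. Transcript GC content was 57.5% for RNF25 and 44.4% for RNF14, and with the GC trend removed the log2 ratios were -1.15 and -0.89. Neither promoter window, printed above, held a searched motif, so the motifs cannot compare these genes. On the opposite strand RNF25 overlaps STK36 and RNF14 overlaps PCDH12. The cause of the low values was not tested.

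RNF146, which recognises poly-ADP-ribose and degrades axin, stood at 56.1 in shCtrl, 54.0 in shPJA1, 50.1 with TGFb1 and 31.0 in the shPJA/TGFb1-titled library, a ratio over shPJA1 of 0.57 (0.323 to 0.974). RNF6, RNF128 and RNF19A, high in shPJA1, had ratios of 0.72 (0.564 to 0.906), 0.73 (0.562 to 0.943) and 0.77 (0.621 to 0.955). RNF141 had 0.74 (0.556 to 0.970) and TRIM44 0.82 (0.671 to 0.995). For RNF6 and RNF128 the shPJA/TGFb1-titled library, at 165 and 140.2, lay between shCtrl and the higher libraries.

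Higher in the shPJA/TGFb1-titled library than in shPJA1 were RNF121, a membrane ligase of the early secretory pathway, RNF144A, RNF149, RNF220 and TRIM71. RNF121 stood at 60.8 in shCtrl, 46.8 in shPJA1, 46.7 with TGFb1 and 71.7 in the shPJA/TGFb1-titled library, a ratio of 1.53 whose interval began just above 1. RNF144A, an RBR ligase that degrades a DNA repair kinase, had a ratio of 1.52 (1.05 to 2.19), RNF149 of 1.30 (1.03 to 1.64) and RNF220 of 1.27 (1.01 to 1.60). TRIM71 had a ratio of 1.20 (1.03 to 1.40). With the GC trend removed 8 of the family had an interval excluding 1, 6 of them among these 13, which is 8.60% against 7.94% of all genes, where before it was 14% against 9.21%. The calls of RNF121, RNF128, RNF141, RNF146, RNF19A, RNF220 and TRIM44 ended while those of RNF213 and TRIM15 began. Of the calls that ended, the ratio of RNF146 went from 0.573 to 0.598 (0.337 to 1.02) and that of RNF121 from 1.53 to 1.47 (0.962 to 2.24).

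The fourth comparison set the shPJA/TGFb1-titled library against TGFb1, which by title gives the hairpin in treated cells and by the treatment label gives water against TGF-beta1. No member was at least 2-fold higher, against 2.13% of all genes, and RNF125 and RNF25 were lower, against 2.48%. The interval excluded 1 for 5 members higher and 13 lower, or 5.38% and 14%, against 7.29% and 7.71% of all genes. The medians were -0.01 for the members and -0.01 for all genes. The lower side thus held more members than its background share, and the family was not tested against other genes.

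RNF25 had a ratio of 0.47 (0.254 to 0.820) and RNF14 of 0.49 (0.291 to 0.798). RNF138, which acts in DNA end resection, stood at 30.4 in shCtrl, 24.3 in shPJA1, 32.5 with TGFb1 and 16.3 in the shPJA/TGFb1-titled library, a ratio of 0.50 (0.229 to 0.992) on 10 and 57 reads. TRIM36 had 0.54 (0.282 to 0.967), RNF13 0.58 (0.401 to 0.815), TRIM23 0.61 (0.424 to 0.851) and RNF19A 0.67 (0.547 to 0.815). TRIM36, RNF13, TRIM23 and RNF19A each had their highest value in TGFb1. RNF19B, the RBR relative of RNF19A, stood at 108 in shCtrl, 84.6 in shPJA1, 134 with TGFb1 and 92.9 in the shPJA/TGFb1-titled library, a ratio of 0.69 (0.510 to 0.931). RNF115, TRIM37, TRIM44, RNF6 and RNF213 had ratios of 0.72, 0.75, 0.78, 0.78 and 0.84.

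On the higher side TRIM71 had a ratio of 1.38 (1.19 to 1.60), with 447 in the shPJA/TGFb1-titled library and 323 in TGFb1, and TRIM27 one of 1.32 (1.07 to 1.62). TRIM14, a RING-less adaptor of the antiviral protein MAVS, stood at 93.5 in shCtrl, 85.5 in shPJA1, 70.6 with TGFb1 and 101 in the shPJA/TGFb1-titled library, a ratio of 1.43 (1.04 to 1.96). RNF44 had 1.35 (1.09 to 1.66) and RNF121 1.54 (1.04 to 2.24). For TRIM71, TRIM27, TRIM14 and RNF44 the TGFb1 library was the lowest of the 4. With the GC trend removed 13 members had an interval excluding 1, 9 of them among these 18, which is 14% against 11.5% of all genes, where before it was 19.4% against 14.99%. On the lower side 7 members were left, 7.53% against 5.06%. The calls of RNF115, RNF121, RNF138, RNF44, RNF6, TRIM14, TRIM36, TRIM37 and TRIM44 ended, and those of RNF149, RNF2, RNF8 and TRIM24 began. Among the ended calls TRIM36 stood at 0.566 (0.295 to 1.01), RNF138 at 0.542 (0.247 to 1.07) and RNF121 at 1.46 (0.989 to 2.13).

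**Figure D4:**
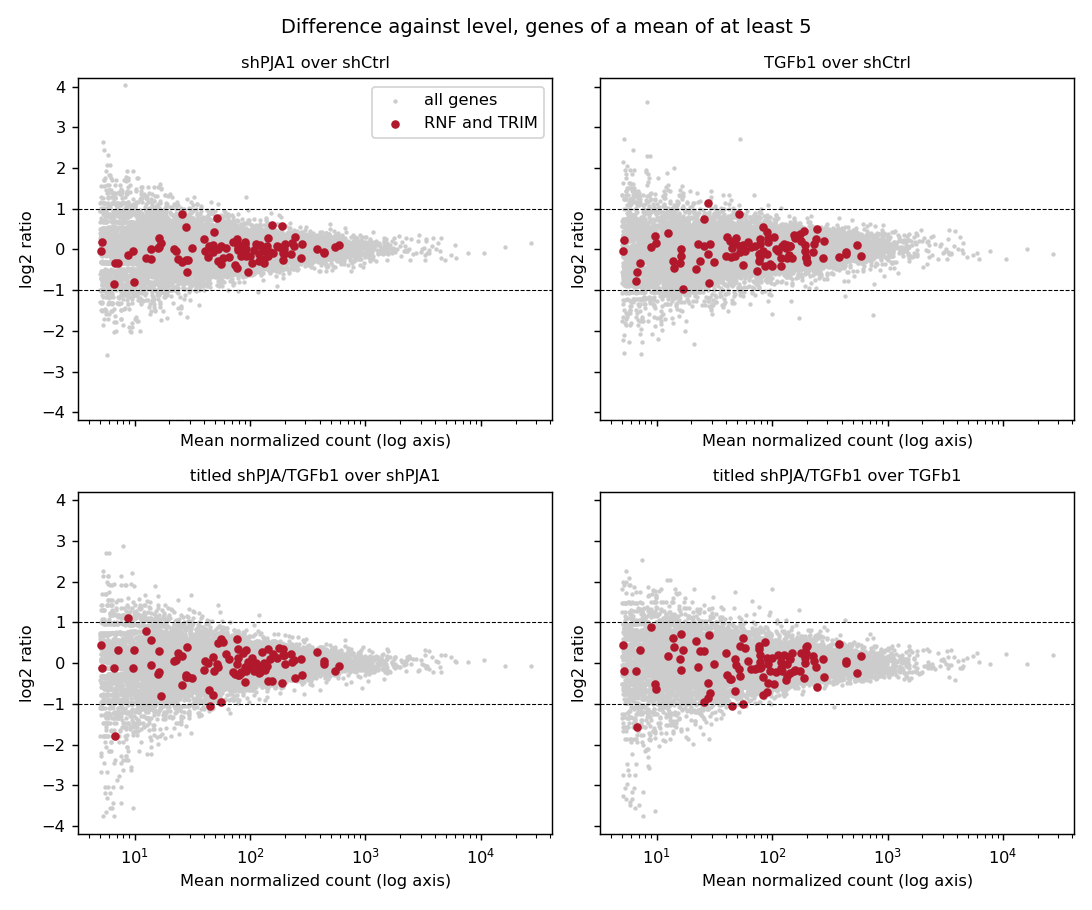
Log2 ratio of normalized count plus 1 (y axis) against the mean normalized count (x axis, logarithmic) in the 4 comparisons, with all 11212 genes in grey, members in red and dashed lines at 2-fold. The members lie within the grey cloud at every level, and past a line are TRIM36 in TGFb1 over shCtrl, TRIM29, RNF125 and RNF25 in the shPJA/TGFb1-titled library over shPJA1, and RNF125 and RNF25 in that library over TGFb1.

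In the plot of log2 ratio against level the members follow the narrowing cloud of all genes. Spread over the 4 libraries was summarised as the Pearson statistic of the reads divided by 3. Where counting error alone acts, its mean is about 1 and its median lies below 1. Its median here was 1.18 over the members and 1.38 over all genes. It was over 3 for 15 members, or 16.1%, against 19.6% of all genes. The largest was 9.01 for RNF19A, followed by 6.57 for TRIM71, 6.25 for RNF6, 5.94 for RNF13, 5.73 for RNF19B, 5.08 for RNF44 and 4.90 for RNF128. The highest library was on median 1.32 times the lowest for a member and 1.39 times for a gene of the table, but at a mean of at least 100 it was 1.26 times for a member and 1.24 times for a gene. The lowest value fell in the shPJA/TGFb1-titled library for 31 members, in TGFb1 for 25, in shPJA1 for 20 and in shCtrl for 17, and the highest in the shPJA/TGFb1-titled library for 29, in TGFb1 for 26, in shPJA1 for 20 and in shCtrl for 18. As shares of the 93 these are 33.3%, 26.9%, 21.5% and 18.3% for the lowest value and 31.2%, 28.0%, 21.5% and 19.4% for the highest. Over all genes, in the same order of libraries, they were 27.2%, 25.1%, 21.4% and 26.3%, and 26.9%, 26.0%, 21.3% and 25.8%. The shPJA/TGFb1-titled library, with the fewest reads, led over all genes too, and shCtrl held fewer extremes among the members than among all genes.

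By class, the 5 ligases with a protease-associated domain, RNF13, RNF128, RNF130, RNF149 and RNF167, all had log2 ratios above 0 in shPJA1 over shCtrl, with a median of 0.10, though RNF13 lay at 0.01 and went to -0.09 with the GC trend removed and just below 0 with TMM or total-read scaling, and in TGFb1 over shCtrl, with a median of 0.26. These comparisons share the shCtrl library. In each comparison of the shPJA/TGFb1-titled library 3 of the 5 were above 0 and 2 below. The 4 NHL members TRIM2, TRIM3, TRIM32 and TRIM71 were all above 0 in the shPJA/TGFb1-titled library over shPJA1 and over TGFb1, with medians of 0.29 and 0.40, and these share that library. In each of these, 1 of the 4 intervals excluded 1, and in that library TRIM3 had 5 reads and TRIM2 13. In TGFb1 over shCtrl 1 NHL member was above 0 and 3 below, with a median of -0.17, and in shPJA1 over shCtrl 3 and 1. In the shPJA/TGFb1-titled library over shPJA1 and over TGFb1 the 24 members in no other class had 6 and 10 above 0, with medians of -0.11 and -0.11. For the 18 PRY-SPRY members the medians were -0.11, -0.04, -0.06 and -0.07 in the 4 comparisons in the order given, for the 9 chromatin and DNA damage members -0.08, 0.08, 0.12 and -0.17, and for the 8 RBR members -0.06, 0.04, 0.12 and -0.17. Without the GC trend they were -0.02, -0.01, -0.06 and -0.06 for PRY-SPRY and -0.14, -0.01, 0.08 and -0.07 for chromatin and DNA damage. For RBR they were -0.10, -0.01, 0.03 and -0.13. No class median was tested.

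If the titles hold, each factor was read in a pair of comparisons with no library in common. For the hairpin (shPJA1 over shCtrl, and the shPJA/TGFb1-titled library over TGFb1) 22 members were higher in both and 25 lower in both, 50.5% of the 93, against 44.8% of all genes. No member had an interval excluding 1 on the same side in both, against 0.455% of all genes, and 2, RNF6 and RNF19A, had intervals on opposite sides, 2.15% against 2.20%. For TGF-beta1 (TGFb1 over shCtrl, and the shPJA/TGFb1-titled library over shPJA1) 23 were higher and 25 lower in both, 51.6% against 46.0%. Again no member had both intervals on the same side, against 0.981% of all genes, and 3, RNF6, RNF19A and RNF128, were on opposite sides, 3.23% against 1.93%. With the GC trend removed none of these was on opposite sides for either factor, and for TGF-beta1 RNF213 and TRIM71 were. With the GC trend removed the shares were 49.5% of the members and 49.3% of all genes for the hairpin, and 49.5% and 49.9% for TGF-beta1. The pairs of both factors draw on the same 4 libraries. The reversals of RNF6 and RNF19A are thus counted under each factor and are not separate. By the treatment label of the last library the comparisons of a pair would not be repeats of 1 contrast.

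As an alternative, edgeR's quasi-likelihood test was fitted to the reads of 10210 genes with additive hairpin and TGF-beta1 terms by title, leaving 1 residual degree of freedom. It tested 87 members and called 0 for either term after Benjamini-Hochberg adjustment, with a smallest adjusted p of 0.9999 for the hairpin and 0.9994 for TGF-beta1. DESeq2 on the same model also called 0 members. Over all genes edgeR called 0% higher and 0.00979% lower for the hairpin, and 0.0196% each way for TGF-beta1. At an unadjusted p under 0.05, 1 member, RNF19B, was lower for the hairpin, at a log2 change of -0.43, against 1.01% of all genes. For TGF-beta1 1 member, RNF145, was lower, at -0.96 (standard error 0.42, worked back from its p-value), against 2.4%. No member was higher at that level, against 1.29% and 1.35%.

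**Figure D5:**
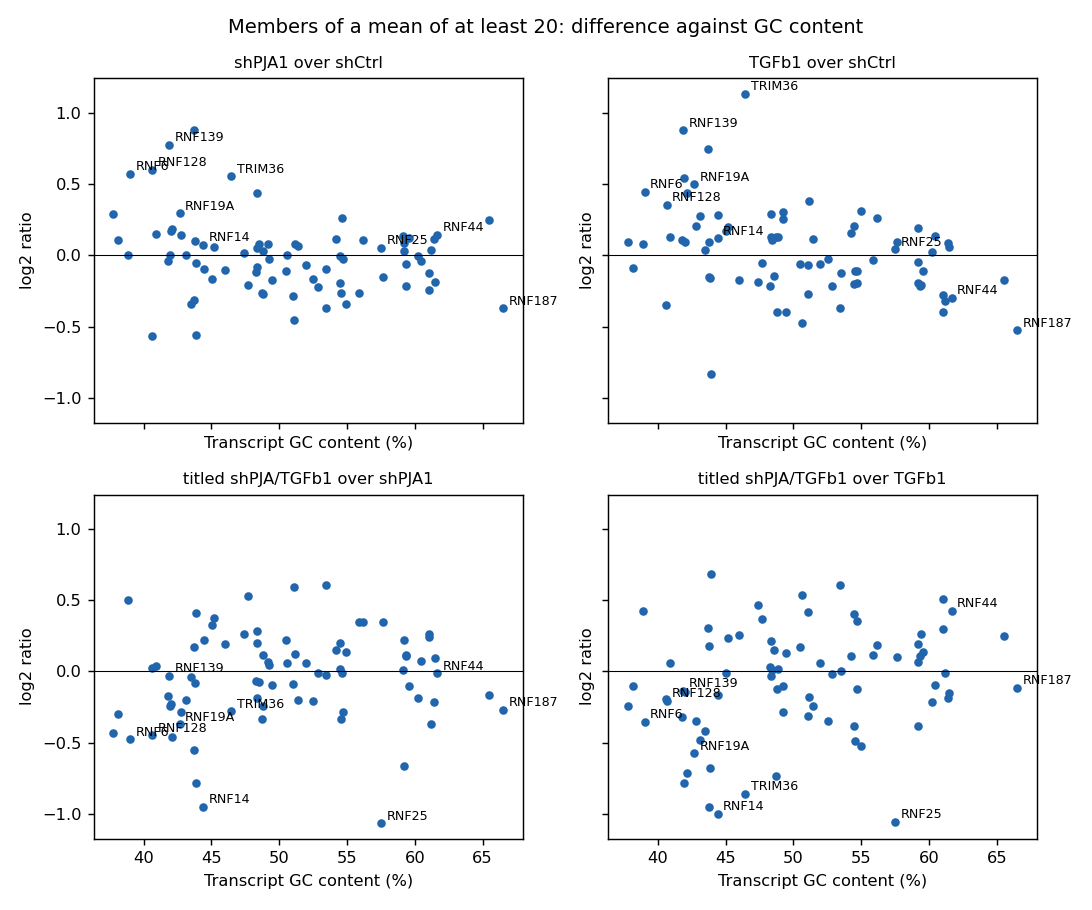
Log2 ratio of normalized count plus 1 (y axis) against transcript GC content in percent (x axis) for the 78 members with a mean of at least 20, in the 4 comparisons. RNF6, RNF128, RNF19A and RNF139 lie at low GC content and above 0 in both comparisons over shCtrl, RNF187 and RNF44 lie at the high end, and RNF14 and RNF25 lie low in the lower panels at unlike GC content.

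Transcript GC content moved with these ratios, in the members as in all genes. Over the 78 members with a mean of at least 20, Pearson's r of the log2 ratio with GC content was -0.24, -0.37, 0.12 and 0.25 in the 4 comparisons, and over 8441 genes -0.28, -0.39, 0.24 and 0.36. These are descriptions across genes that share 4 libraries. The 23 members under 45% GC had a median log2 ratio of 0.12 in TGFb1 over shCtrl and -0.24 in the shPJA/TGFb1-titled library over TGFb1, and the 20 members of at least 55% had -0.08 and 0.11. RNF6 at 39%, RNF128 at 40.6%, RNF139 and RNF13 at 41.9% and RNF19A at 42.7% were among the former, RNF44 at 61.7% and RNF187 at 66.5% among the latter. The plot of log2 ratio against GC content shows RNF139 high for its GC content, and its log2 ratio of TGFb1 over shCtrl was 0.88 as measured and 0.72 with the trend removed. For RNF6 the same values were 0.45 and 0.23.

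The other parts of the ubiquitin pathway were read from lists drawn up with earlier results of these data known. Of 31 E1 and E2 genes of a mean of at least 5, 22 had log2 ratios above 0 in shPJA1 over shCtrl, with a median of 0.15, and 5 had an interval above 1 and 0 below, 16.1% against 5.85% of all genes. In TGFb1 over shCtrl 8 were above and 0 below, 25.8% against 10.8%, with a median of 0.07. With the GC trend removed these medians were 0.13 and 0.01, and the list was not tested. UBA6, an E1 enzyme, stood at 216 in shCtrl, 277 in shPJA1, 316 with TGFb1 and 256 in the shPJA/TGFb1-titled library, a ratio of TGFb1 over shCtrl of 1.46 (1.24 to 1.74). UBE2Q2, an E2 enzyme, stood at 43.3 in shCtrl, 79.2 in shPJA1, 64.9 with TGFb1 and 61.9 in the shPJA/TGFb1-titled library, a ratio of shPJA1 over shCtrl of 1.83 (1.24 to 2.77). In the shPJA/TGFb1-titled library over shPJA1 the list had 1 interval above 1 and 0 below, 3.23% and 0% against 4.91% and 4.31% of all genes. Over TGFb1 the list had 2 above and 2 below, 6.45% each against 7.29% and 7.71%.

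Of 63 other RING ligases, PJA1 included, 6 had an interval above 1 and 3 below in shPJA1 over shCtrl, 6 and 5 in TGFb1 over shCtrl, 3 and 3 in the shPJA/TGFb1-titled library over shPJA1, and 4 and 9 in it over TGFb1. As shares these are 9.52% and 4.76%, 9.52% and 7.94%, 4.76% and 4.76%, and 6.35% and 14.3%, so the share lower in the shPJA/TGFb1-titled library than in TGFb1 was close to the 14% of the RNF and TRIM members and above the 7.71% of all genes. Their medians were -0.01, 0.05, -0.00 and -0.05, near those of the RNF and TRIM members. Without the GC trend the share of RNF and TRIM members lower in the fourth comparison was 7.53% against 5.06% of all genes. For the other RING ligases that share was not computed, and their medians without the trend were -0.02, -0.02, -0.01 and 0.05. PJA1 was the lowest of these ligases in shPJA1 over shCtrl, at a ratio of 0.305 (0.163 to 0.545). PML, the TRIM-type organiser of nuclear bodies, stood at 22.2 in shCtrl and 49.5 in shPJA1, a ratio of 2.23 (1.30 to 3.98). Of 27 interferon-stimulated genes, 3 were above and 2 below in the first comparison, 2 and 3 in the second, 2 and 0 in the third and 2 and 2 in the fourth, or 11.1% and 7.41%, 7.41% and 11.1%, 7.41% and 0%, and 7.41% and 7.41%. The shares over all genes were, in the same order, 5.85% and 5.23%, 10.8% and 9.29%, 4.91% and 4.31%, and 7.29% and 7.71%. The interferon-stimulated genes had medians of 0.02, -0.00, -0.11 and -0.09, beside 0.00, 0.00, -0.00 and -0.01 for all genes. Of the 7 members with the interferon response core in their promoter, TRIM14 had an interval above 1 in the fourth comparison. TRIM44 had an interval below 1 in the third and in the fourth, and RNF31, TRIM2, TRIM21, TRIM26 and TRIM5 had none excluding 1. Over all genes 9.21% had an interval excluding 1 in the third comparison and 14.99% in the fourth. With the GC trend removed these calls of TRIM14 and TRIM44 ended.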

How the data were processed

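Total RNA of HepG2 was sequenced in 4 libraries made with an Illumina TruSeq kit, per the labels' protocols. FastQC, Trimmomatic, TopHat2 2.0.10 and Cufflinks are listed in the submitters' processing notes, with no order or settings. For the genome build, annotation and strand setting: not given in the sources used here. The authors deposited a table named as FPKM whose signal is not scaled to gene length. Within a library 100% of its entries were whole multiples of 1 step (tolerance 1e-06). Values are thus reads divided by a size factor (0.856 in shCtrl, 1.11 in shPJA1, 1.76 with TGFb1 and 0.614 in the shPJA/TGFb1-titled library). Groups followed the titles. All per-sample columns were used.

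Ratios carry an exact conditional 95% Poisson interval; folds used a pseudocount of 1. The count alternative used edgeR 4.0.16 and DESeq2 1.42.0 in R 4.3.3 on genes with at least 40 reads, at a common coefficient of variation of 10.9%. Transcripts of GENCODE release 29 gave GC content for 98.4% of the genes whose mean was 20 or more, and removing a lowess trend (span 0.3) was an alternative. Steps were tested on simulated data. Python 3.11.15 with numpy 2.4.6, pandas 2.3.3, scipy 1.17.1, statsmodels 0.14.6 and matplotlib 3.10.9 was used. Intervals cover counting error only.

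Members and lists were chosen with earlier results of these data known. Named members are those with the 8 highest and 8 lowest ratios in a comparison at a mean of at least 20, an interval excluding 1, the 10 highest levels per kilobase, the 3 highest per class, the 5 smallest p of each count term and the 3 nearest the threshold on each side. Others, such as RNF125, TRIM29, RNF5, RNF181 and TRIM34, were chosen after their values were seen. Promoter motifs were likewise chosen with results known, and AAGATGGC and GCGCATGC were shortened from longer forms after a first search.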

Additional observations from a re-analysis of the deposited data

Results flagged for a closer look

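For RNF128, RNF19A and RNF6 the interval excluded 1 on opposite sides in the comparisons that would repeat 1 factor by title. The ratio of TGFb1 over shCtrl and that of the shPJA/TGFb1-titled library over shPJA1 were 1.28 and 0.731 for RNF128, 1.41 and 0.772 for RNF19A, and 1.37 and 0.717 for RNF6. The ratio of shPJA1 over shCtrl and that of the shPJA/TGFb1-titled library over TGFb1 were 1.23 and 0.67 for RNF19A, and 1.49 and 0.781 for RNF6. For RNF19A and RNF6 the pair for TGF-beta1 and the pair for the hairpin use the same counts. The gap between the ratios is therefore the same in both pairs, and each gene shows a single departure. With 1 library per condition the difference between the ratios was not tested. With the trend on transcript GC content removed, none of these 5 pairs kept both intervals clear of 1. For TGF-beta1 RNF128 lost both, RNF6 that of TGFb1 over shCtrl and RNF19A that over shPJA1. For the hairpin RNF19A lost that of shPJA1 over shCtrl and RNF6 that over TGFb1.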

How the results depend on the processing

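No paired analysis was possible because each condition has 1 library and the labels give no replicate numbers. Of the counts of members at least 2-fold apart, shPJA1 over shCtrl went from 0 to 4 with no filter on low values. TGFb1 over shCtrl went from 1 to 2 with a pseudocount of 0.5, to 0 with a pseudocount of 5, to 14 with no filter and to 2 with the GC trend removed. The shPJA/TGFb1-titled library over shPJA1 went from 3 to 0 with a pseudocount of 5, to 1 at a mean of at least 20 and to 11 with no filter. It went over TGFb1 from 2 to 0, 1 and 15 under the same settings. Lower filters and pseudocounts admit genes of few reads. Members with an interval excluding 1 went from 13 to 8 in the shPJA/TGFb1-titled library over shPJA1 with the GC trend removed; the cause was not tested. No ratio whose interval excludes 1 changed sign. Of the 244 log2 ratios of named members 20 changed sign with the GC trend removed, 5 with total-read scaling and 4 with TMM, all with intervals that hold 1 and none farther from 0 than 0.13 before. The members' median in TGFb1 over shCtrl went from 0.01 to -0.00 with the GC trend removed. All 244 stayed within their counting interval under each of 5 settings (both pseudocounts, TMM and total-read scaling, GC trend removed). These intervals are wide, so this does not show that calls were stable, and with the GC trend removed several ended. Of 61 levels per kilobase 46 moved with the longest transcript. edgeR called 0 members with a GC offset, median-ratio factors or no filter. The GC correction and the filters on interval counts were chosen after seeing the data. Depth limits members of few reads: 3 reads are worth 1.71 normalized counts with TGFb1 and 4.89 in the shPJA/TGFb1-titled library.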

Other observations

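Names related to the members but outside the rule were also read. RNFT1 stood at 42.1 in shCtrl, 65.7 in shPJA1, 65.5 with TGFb1 and 53.8 in the shPJA/TGFb1-titled library, and was lowest in shCtrl. RNFT2 ran from 6.30 to 15.2 and was highest in shCtrl. RNF5P1 ran from 27.9 to 38.6 while RNF5 had 1 read. The TRIM-like names TRIML1 and TRIML2 had 0 reads in all 4 libraries.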
